A study of Mus musculus with 3 samples.

Results

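The peripheral myelin genes Mbp, Pmp22, Mag, Prx, Mal, Ncmap, Drp2 and Pmp2 were followed in single-nucleus RNA sequencing of mouse dorsal root ganglia (DRG), which hold the somas of sensory neurons and their glia beside the spinal cord. They are 8 of the 32227 genes in the count tables, found by symbol, and were listed for what their products do in the myelin of peripheral nerve and not for a measured value. The libraries came from L3-L5 DRG of C57BL/6 mice, 1 from adult mice (3 months) and 2 from aged mice (21 months). The mice carried no transgene or treatment that the labels name. How many mice gave a library is not stated, so that p-values reflect spread between libraries and not between mice. The test pools this spread over genes, so a p-value mostly measures the shared spread and little of that of its own gene. With 1 adult library the adult values have no replicate, and the adult library was assumed to vary like the aged ones. For the aged mice the sample labels and the description of the series differ in age, and the labels were used. All 3 libraries are labelled male, whereas the methods of the study give aged mice as female in one place and as of both sexes for explants in another. Xist, the RNA that coats the inactive X chromosome of female cells, had a UMI in 85.5% of adult nuclei and in 66.3% and 72.2% of the nuclei of the aged replicates, which is at odds with nuclei of male mice alone. Of the Y-linked genes, Ddx3y had a UMI in 12.8%, 12.2% and 9.46% of nuclei and Uty in 1.97%, 1.07% and 0.996%. Whether mice of both sexes entered a library was not tested.

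In peripheral nerves, a myelinating Schwann cell (MSC) wraps a single axon segment in layers of membrane that compact into myelin. Non-myelinating Schwann cells (NMSC) bundle thin axons without wrapping them in this way, and satellite glial cells (SGC) cover the neuronal somas. The basic protein encoded by Mbp holds the cytoplasmic faces of the compact layers together. The tetraspan membrane protein of Pmp22 and the fatty acid-binding protein of Pmp2 also lie in compact myelin, and duplication or loss of PMP22 causes inherited neuropathy in people. Mal encodes a proteolipid of lipid-rich membrane domains. Mag encodes an adhesion molecule that faces the axon, Ncmap a membrane protein of non-compact myelin, and Prx and Drp2 encode periaxin and dystrophin-related protein 2, which form a complex at the outer surface of the Schwann cell. Mbp, Mag and Mal are also used by oligodendrocytes, the myelinating glia of the central nervous system, whereas Prx is known in nerve for its use by Schwann cells.

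Positions are given on GRCm38. Pmp22 spans chr11:63128982-63159547 on the plus strand, Mal chr2:127633226-127656695 on the minus strand, Ncmap chr4:135369576-135398227 on the minus strand, Drp2 chrX:134404551-134456573 on the plus strand and Pmp2 chr3:10179851-10183929 on the minus strand. Prx (chr7:27499324-27520214, plus strand) and Mag (chr7:30899176-30914873, minus strand) share a chromosome. Exons of any transcript cover between 7.66% (Mbp) and 34.5% (Pmp2) of the gene spans, and nuclear RNA holds unspliced transcripts. Prx overlaps the antisense gene Gm15541, whose 34, 24 and 10 UMIs (unique molecular identifiers, 1 per captured transcript) in MSC-like nuclei (adult library, then aged replicates 1 and 2) compare with 2807, 4191 and 1566 for Prx. Pmp2 overlaps Gm37389 on its own strand, a gene model that is not among the genes counted, so Pmp2 reads could also come from that model.

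The promoters of 4 members are shown because the first pair were lower in aged MSC-like nuclei and the second pair were not called. Each line holds the 250 bases before a RefSeq transcript start on GRCm38.p6, read 5′ to 3′ on the strand of the gene. Pmp22 is shown at chr11:63128732-63128981 (plus strand), the most upstream of its starts, Mal at chr2:127656696-127656945 (minus strand), Prx at chr7:27499074-27499323 (plus strand) and Mag at chr7:30914923-30915172 (minus strand).
Pmp22: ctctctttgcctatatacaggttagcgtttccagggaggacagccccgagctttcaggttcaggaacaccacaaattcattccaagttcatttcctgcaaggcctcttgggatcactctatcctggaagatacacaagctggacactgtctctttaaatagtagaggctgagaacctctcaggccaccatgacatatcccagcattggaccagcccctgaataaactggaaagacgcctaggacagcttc
Mal: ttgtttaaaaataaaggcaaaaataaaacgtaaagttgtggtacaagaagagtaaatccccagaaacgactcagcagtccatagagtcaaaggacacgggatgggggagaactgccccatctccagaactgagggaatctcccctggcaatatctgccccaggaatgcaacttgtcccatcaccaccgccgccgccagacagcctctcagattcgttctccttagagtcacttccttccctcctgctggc
Prx: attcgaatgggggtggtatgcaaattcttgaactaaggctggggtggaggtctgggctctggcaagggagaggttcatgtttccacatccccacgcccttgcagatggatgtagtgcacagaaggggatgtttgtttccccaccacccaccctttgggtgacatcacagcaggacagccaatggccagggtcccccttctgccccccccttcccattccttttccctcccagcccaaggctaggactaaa
Mag: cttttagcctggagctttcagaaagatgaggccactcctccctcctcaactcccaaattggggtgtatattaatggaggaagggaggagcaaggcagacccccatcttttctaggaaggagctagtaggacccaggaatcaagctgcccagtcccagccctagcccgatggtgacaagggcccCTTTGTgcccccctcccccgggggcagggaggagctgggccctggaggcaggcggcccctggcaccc
The capitals in the Mag line mark CTTTGT, the reverse complement of ACAAAG, a core that SOX factors such as Sox10 bind. The table of promoters held 5 of the 8 members (Mal, Ncmap, Prx, Mag and Pmp22) with 11 starts, and this word, searched on both strands, stood before 2 of them, both of Mag, whose windows overlap. Of 32851 promoters in the table, 16.5% held it. The zinc-finger word GCGNGGGCG, searched on both strands for EGR factors such as Egr2, stood before 0 of the 11 starts and in 4.70% of all promoters. TATAAA on the strand of the gene stood before 0 of the 11 starts and in 7.59% of all promoters. A missing word says only that these letters are not in the window.

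The libraries held 167664164 (adult), 95647106 (aged replicate 1) and 69045987 UMIs (aged replicate 2), of which 53.8% to 58.4% lay in the 19259 barcodes with more than 1000 genes, taken as nuclei. Clusters were named from markers that include none of the members, and the members were also left out of the genes used for clustering. Values given as a run of 3 are those of the adult library and then of the first and the second aged replicate. Of the nuclei, 588, 522 and 177 were MSC-like, from 1 cluster that held all 7 MSC markers. NMSC-like nuclei numbered 484, 287 and 153, SGC-like nuclei 3568, 541 and 264, and neuron-like nuclei 4049, 2242 and 1188. The adult and aged libraries shared at most 1 barcode of a nucleus. Barcodes of 10 to 99 UMIs, too few for a nucleus, were summed as free RNA, which can give UMIs of the members in nuclei that do not use them.

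All 8 members had their highest level in MSC-like nuclei in each of the 3 libraries, and with nuclei thinned to 1000 UMIs this held for 7 of them and for Pmp2 in 2 libraries. Levels are CPM, the UMIs of a gene scaled to a common total of UMIs for each class and library, which are not corrected for gene length and so are compared between classes and libraries, not between genes. Over the 3 libraries, MSC-like levels were 2838 ± 399 CPM (SD, n = 3) for Mbp, 4127 ± 1125 for Pmp22, 267 ± 25.8 for Mag, 1684 ± 76.4 for Prx, 794 ± 193 for Mal, 542 ± 74.4 for Ncmap, 966 ± 72.2 for Drp2 and 56.5 ± 22.3 for Pmp2. For no member did the MSC-like libraries overlap those of the next class, although the classes were rebuilt from markers and a class against the others is a description here. The MSC-like level was 24.8 to 43.1 times that of free RNA for Mag, 15.3 to 23.0 times for Prx, 15.7 to 25.6 times for Drp2 and 14.0 to 19.5 times for Ncmap. It was 5.76 to 8.60 times free RNA for Mbp, 6.36 to 10.7 times for Pmp22, 7.08 to 12.2 times for Mal and 2.53 to 6.97 times for Pmp2. With all UMIs of another cell type's markers counted as free RNA, at most 21.3%, 11.9% and 10.5% of MSC-like UMIs were free RNA. In every class free RNA was at most a part of the UMIs. A level below that of free RNA can thus still exceed what free RNA would give.

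**Figure D1:**
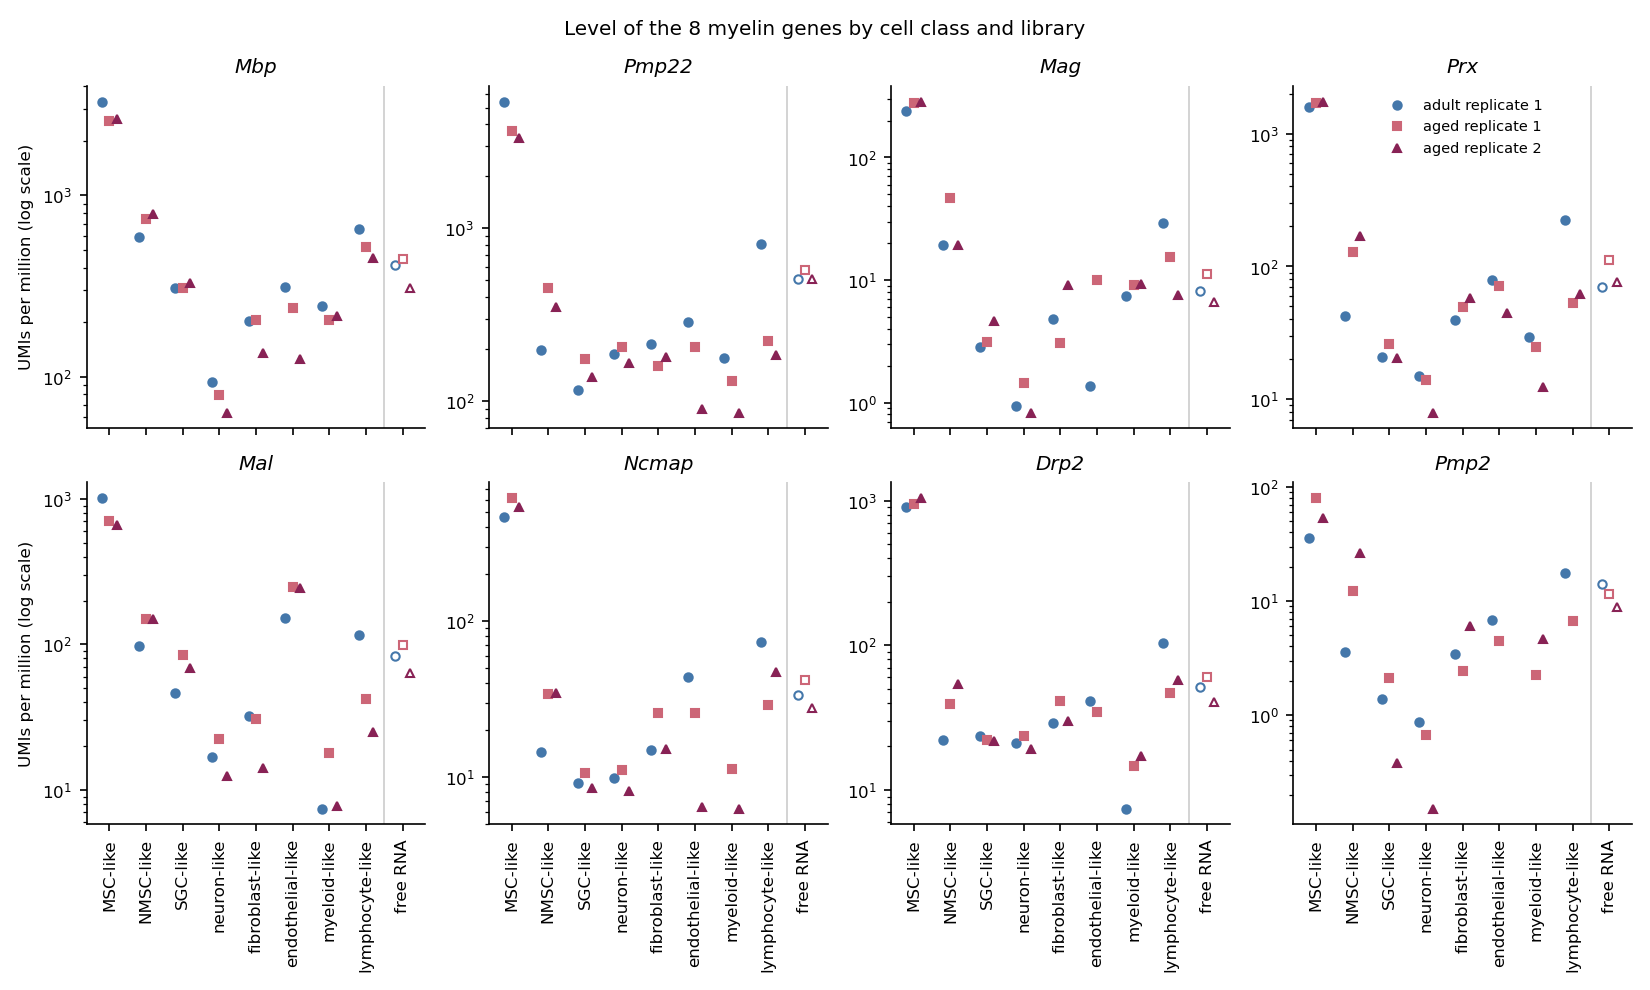
Level of each member (CPM, log axis) in 8 cell classes and in free RNA (open symbols), 1 symbol per library. Each panel is 1 gene, sums with 0 UMIs are not drawn, and in all panels the 3 MSC-like symbols lie above those of every other class, as with Prx at 1598, 1713 and 1742 CPM.

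The members differed in how far their RNA was confined to MSC-like nuclei. MSC-like nuclei were 5.62%, 11.5% and 7.60% of all nuclei with a class name, and they held 2.25%, 5.01% and 2.70% of those nuclei's UMIs. Averaged over the libraries, they nevertheless held 77.5% ± 4.12 of the Mag UMIs, 73.7% ± 8.16 of those of Prx and 60.9% ± 11.3 of those of Ncmap (SD, n = 3). The share was 57.6% ± 9.50 for Drp2, 57.2% ± 18.4 for Pmp2, 47.3% ± 2.05 for Mal, 41.5% ± 6.26 for Pmp22 and 40.8% ± 7.86 for Mbp. The order changed between libraries, as Pmp2 was at 38.2%, 74.8% and 58.5% and stood below Mal (47.3%) and Pmp22 (40.5%) in the adult library. For Mbp the next class was NMSC-like at 707 ± 105 CPM (SD, n = 3), which overlapped lymphocyte-like nuclei at 540 ± 105. SGC-like nuclei followed at 315 ± 10.2 CPM, and the lowest Mbp level was that of neuron-like nuclei, 93.6, 79.2 and 63.4 CPM. Neuron-like Mbp was thus 0.177 to 0.226 times that of free RNA. At most 8.30%, 9.07% and 7.32% of neuron-like UMIs were free RNA. Mbp had 2.72, 1.95 and 2.82 times the UMIs expected from that share.

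NMSC-like nuclei were also next in order for Mag (28.4 ± 15.6 CPM), Prx (114 ± 65.1) and Pmp2 (14.0 ± 11.4), and in each case the range of NMSC-like libraries overlapped that of the class below. Lymphocyte-like nuclei were next for Pmp22 (406 ± 351 CPM), Ncmap (49.9 ± 22.4) and Drp2 (69.4 ± 30.7), with wide ranges that overlapped those of the following class. In the adult library the 256 lymphocyte-like nuclei held the 7 MSC markers at a summed 4380 CPM, against 523 and 449 in the aged libraries. In the same adult nuclei all 8 members stood at 1.24 to 3.59 times free RNA. The summed members were at 2029, 931 and 833 CPM in lymphocyte-like nuclei, a smaller drop than that of the MSC markers. In MSC-like nuclei the same marker sum was at 35038.1, 10852.5 and 9659.3 CPM. The summed members there were at 12970.5, 10551.4 and 10297.9 CPM, also a smaller drop than that of the markers. In aged lymphocyte-like nuclei Mbp stayed above free RNA (1.16 and 1.46 times), whereas Pmp22 was below it (0.387 and 0.365 times). The part of MSC RNA in the lymphocyte-like values was not tested.

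Mal had a different second class from the other members. Endothelial-like nuclei held 153, 249 and 243 Mal CPM, a mean of 215 ± 53.9 (SD, n = 3), above the 132 ± 29.6 of NMSC-like nuclei with no overlap. This was 1.83, 2.51 and 3.82 times free RNA. Mbp in the same endothelial-like nuclei was 0.406 to 0.756 times free RNA, and Mag was at 1.38, 10.0 and 0 CPM. With each nucleus thinned at random to 1000 UMIs, Mal was seen in 11.4% of endothelial-like nuclei in the adult library (95% exact binomial interval 7.39% to 16.7%) and in 21.0% (15.3% to 27.8%) and 18.3% (9.52% to 30.4%) of those of the aged replicates. In neuron-like nuclei the corresponding shares were 2.54%, 3.61% and 1.85%. All binomial and counting intervals given here cover counting error only.

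The proportions of the members also differed between classes. Pmp22 had 1.64, 1.42 and 1.26 UMIs for each Mbp UMI in MSC-like nuclei, and 1.22, 1.28 and 1.65 in free RNA. In NMSC-like nuclei it had 0.335, 0.611 and 0.443, and in SGC-like nuclei 0.376, 0.567 and 0.421, so that Mbp UMIs outnumbered those of Pmp22 in both in all 3 libraries. Neuron-like nuclei had 1.99, 2.59 and 2.61 Pmp22 UMIs for each Mbp UMI. Neuron-like Pmp22 was 186, 205 and 166 CPM, which is 0.327 to 0.369 times free RNA. It had 4.45, 3.95 and 4.47 times the UMIs expected from the largest free RNA share of these nuclei. The ranges of the Pmp22 to Mbp ratio did not overlap between MSC-like, neuron-like and the other glial classes.

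Single MSC-like nuclei carried several members together. After thinning to 1000 UMIs, which left out no nucleus, an MSC-like nucleus held a mean of 4.27, 4.32 and 4.27 of the 8 members. NMSC-like nuclei held 0.674, 1.27 and 0.993, SGC-like nuclei 0.440, 0.580 and 0.538, and neuron-like nuclei 0.399, 0.449 and 0.360. UMIs of 3 or more members were seen in 90.3% (95% exact interval 87.6% to 92.6%), 91.8% (89.1% to 94.0%) and 90.4% (85.1% to 94.3%) of MSC-like nuclei. In neuron-like nuclei the shares were 0.815%, 1.43% and 0.673%, at median depths of 7159, 5387.5 and 7284.5 UMIs against 2399.5, 3482.5 and 4021 in MSC-like nuclei before thinning.

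For each member, both aged shares of MSC-like nuclei with a UMI after thinning lay on the same side of the adult share as the aged CPM did of the adult CPM. Mbp was seen in 94.6% of adult nuclei (92.4% to 96.2%), 86.0% of those of aged replicate 1 (82.7% to 88.9%) and 84.7% of those of aged replicate 2 (78.6% to 89.7%). In neuron-like nuclei, thinned in the same way, Mbp was seen in 11.6%, 10.6% and 7.41%. Pmp22 was seen in 91.0%, 89.7% and 85.9% of MSC-like nuclei, Prx in 72.6%, 76.4% and 79.7%, and Drp2 in 56.1%, 61.1% and 62.1%. Mal was seen in 54.3%, 46.2% and 41.8%, Ncmap in 35.4%, 42.3% and 43.5%, and Mag in 21.1%, 24.7% and 26.6%. Both aged libraries were thus below the adult one for Mbp, Pmp22 and Mal and above it for Prx, Drp2, Ncmap and Mag, with intervals that do not overlap for Mbp. Pmp2 was the exception among the members in its spread over nuclei. After thinning it was seen in 2.04%, 5.75% and 2.82% of MSC-like nuclei. Without thinning its 63, 196 and 48 UMIs lay in 34, 69 and 20 MSC-like nuclei, and the 5 nuclei with most held 38.1%, 27.6% and 54.2% of them.

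**Figure D2:**
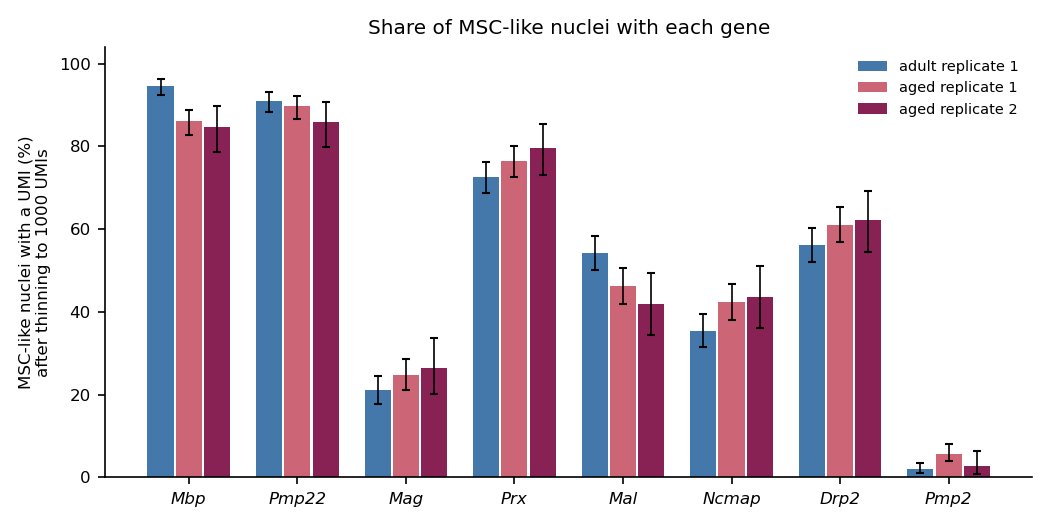
Share of MSC-like nuclei with at least 1 UMI of each member after thinning to 1000 UMIs (percent, from 0), with bars for the 3 libraries and 95% exact binomial intervals. Mbp, Pmp22 and Mal are lower in both aged libraries than in the adult one (Mbp 94.6%, 86.0% and 84.7%), and Mag, Prx, Ncmap and Drp2 are higher.

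To ask how these genes differ between ages, UMIs were summed over the nuclei of a class in each library and tested across all genes with edgeR. In MSC-like sums, Mbp, Pmp22 and Mal fell in the aged libraries and Pmp2 rose, while Mag, Prx, Ncmap and Drp2 did not pass the threshold, an adjusted p under 0.05. Thus 4 of 8 members were called, where 10.5% of the 12942 genes tested were (4.02% higher and 6.53% lower in aged). Members have many UMIs, and of the 3820 genes with at least the 307 UMIs of Pmp2, the lowest member, 17.8% were called.

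Of the compact myelin genes, Pmp22 had an adult level of 5413 CPM and aged levels of 3644 and 3323 CPM. The log2 difference, aged against adult, was −0.75 ± 0.097 (SE), or 1.68-fold lower, with an adjusted p of 2.29e-12. Mbp had an adult level of 3296 CPM and aged levels of 2574 and 2642 CPM. Both genes were higher in the adult library than in either aged one. The log2 difference of Mbp was −0.45 ± 0.10 (1.37-fold lower, adjusted p = 0.000366). Mal fell from 1015 to 703 and 663 CPM, a log2 difference of −0.68 ± 0.12 (1.60-fold lower, adjusted p = 2.45e-06), again with the adult library above both aged ones. The Pmp22 and Mal calls held under every alternative with a test, whereas Mbp was not called by DESeq2 (adjusted p = 0.0875), with nuclei assigned by markers (−0.33, adjusted p = 0.169) or in nuclei with more than 2000 genes (−0.30, adjusted p = 0.263).

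Pmp2, by contrast, had an adult level of 35.9 CPM and aged levels of 80.1 and 53.4 CPM, a log2 difference of 0.85 ± 0.25 (1.81-fold higher, adjusted p = 0.0100). The 2 aged libraries differed by more from each other than aged replicate 2 did from the adult library. The log2 difference was 0.47 without aged replicate 1 and 1.04 without aged replicate 2, and DESeq2 did not call the gene (adjusted p = 0.838). The call was also lost in nuclei with more than 2000 genes (0.21, adjusted p = 0.755), after thinning each nucleus to 1000 UMIs (adjusted p = 0.190) and after subtraction of free RNA (adjusted p = 0.160).

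The members of the axon-facing, non-compact and outer membranes were not called in MSC-like sums. Mag was at 237, 277 and 286 CPM (log2 difference 0.13 ± 0.16), and Ncmap at 468, 617 and 541 (0.20 ± 0.14). Among nuclei with more than 2000 genes, Ncmap was called as higher in the aged libraries (0.73, adjusted p = 0.0297). Prx was at 1598, 1713 and 1742 CPM (−0.00 ± 0.11) and Drp2 at 908, 944 and 1047 (0.02 ± 0.12). The adult CPM lay below both aged values for each of these 4 genes, but the fit scales libraries to the bulk of genes. With UMI totals alone as the scale, the median of all genes was 0.11 on the log2 scale and that of Prx also 0.11. On this scale the same 4 members were called, Mbp with −0.34, Pmp22 with −0.64, Mal with −0.57 and Pmp2 with 0.97.

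**Figure D3:**
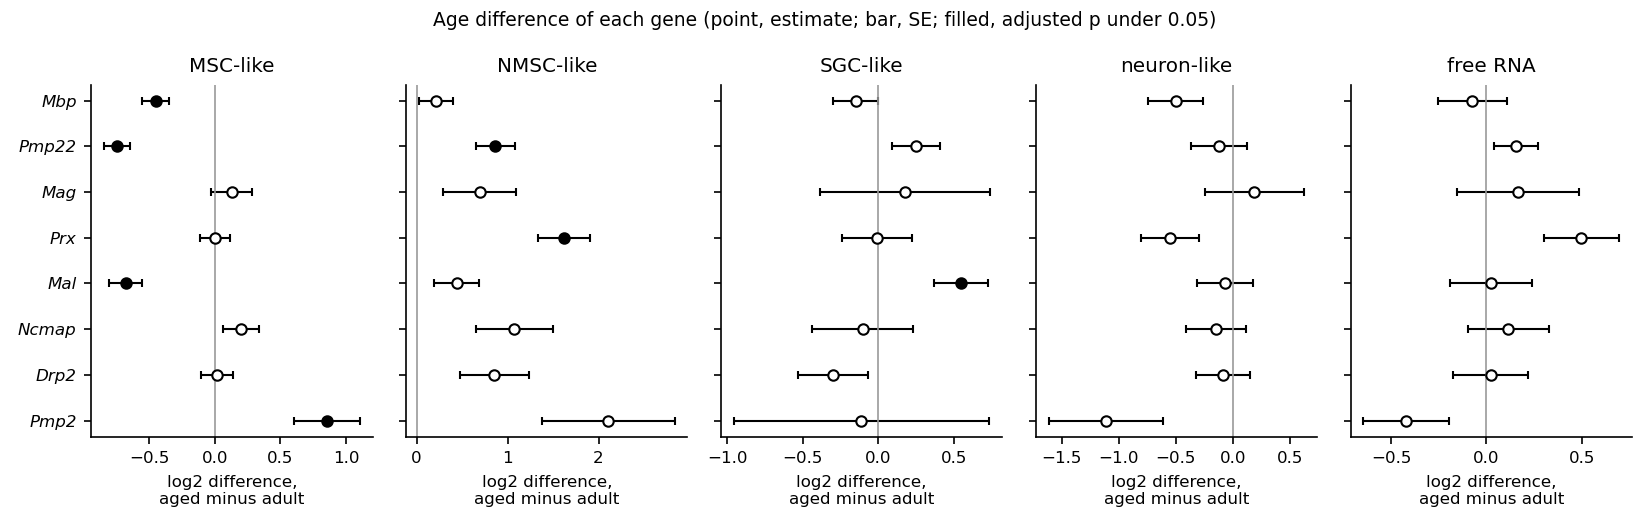
Difference between aged and adult libraries of each member (log2, edgeR estimate with SE bars) in MSC-like, NMSC-like, SGC-like and neuron-like sums and in free RNA. Each panel has its own axis, filled points have an adjusted p under 0.05, and in MSC-like sums Pmp22 (−0.75), Mal (−0.68) and Mbp (−0.45) lie left of 0 and Pmp2 (0.85) right of it.

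Other properties of the MSC-like nuclei differed between the adult and the aged libraries as well. The nuclear transcript Malat1 took 6.66% of adult UMIs and 2.13% of those of either aged library, mitochondrial transcripts took 0.493%, 0.363% and 0.262%, and the median nucleus held 2399.5, 3482.5 and 4021 UMIs. The Malat1 difference was not particular to MSC-like nuclei. Malat1 took 7.21%, 1.89% and 2.00% of NMSC-like UMIs and 8.68%, 2.03% and 2.18% of SGC-like UMIs. It took 4.18%, 1.30% and 1.52% of neuron-like UMIs and 2.49%, 1.41% and 1.29% of free RNA. The part of these properties in the results was not tested, but the members were compared within bins of genes detected per nucleus. In nuclei with 1001 to 1500 genes, Mbp was 3687, 2556 and 2937 CPM. In nuclei with 1501 to 2000 genes it was 3447, 2871 and 3059, with 2001 to 3000 genes 3003, 2757 and 2866, and with over 3000 genes 2491, 2320 and 2340. The adult value was therefore above both aged ones in all 4 bins, with a wider gap in the 2 lower bins than in the 2 upper ones, and only 26 adult nuclei were in the last bin. Among nuclei with more than 2000 genes alone, the log2 difference of Mbp was −0.30 and was not called (adjusted p = 0.263).

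Pmp22 and Mal kept a wider gap in these bins. Pmp22 was 5266, 3787 and 3745 CPM in the lowest bin and 5937, 3402 and 3391 in the highest. Mal was 1029, 644 and 562 CPM in the lowest bin and 998, 663 and 690 in the highest. In all 4 bins the adult value of both genes was above both aged values.

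**Figure D4:**
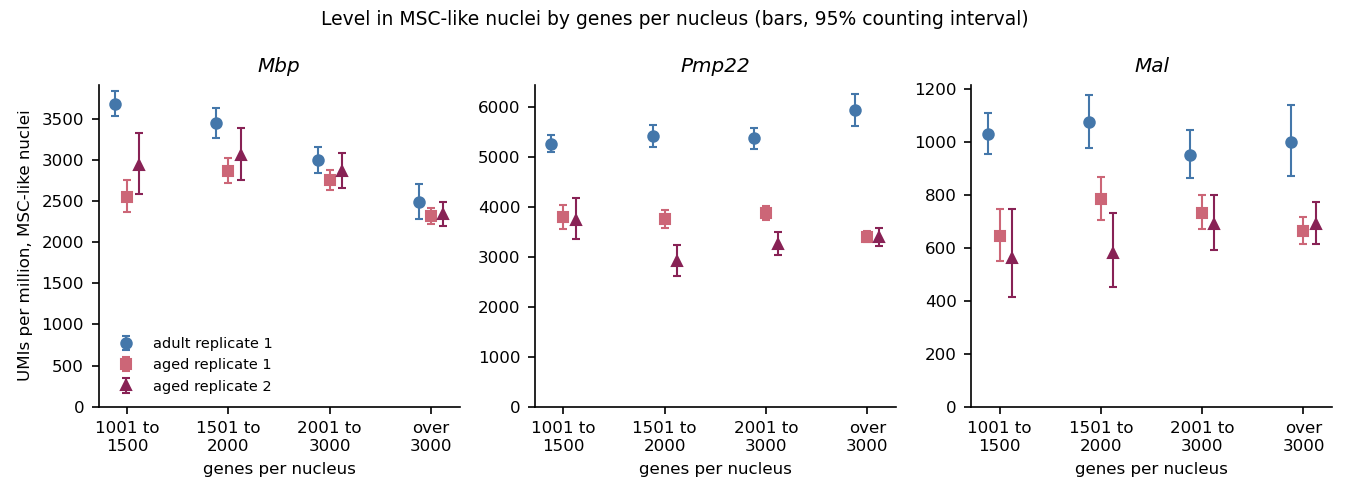
Level of Mbp, Pmp22 and Mal (CPM) in MSC-like nuclei grouped by the number of genes detected per nucleus, with 1 symbol per library and 95% counting intervals. The adult symbol lies above both aged ones in each bin of each gene, and for Mbp the gap is 3687 against 2556 and 2937 in the lowest bin and 2491 against 2320 and 2340 in the highest.

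A few adult nuclei of the MSC-like cluster carried the genes of oligodendrocytes. UMIs of at least 2 of Mog, Mobp, Opalin, Ermn and Hapln2 were found in 6 of 588 adult MSC-like nuclei and in 0 of 522 and 0 of 177 aged ones. These 6 nuclei held Mbp at 4162, Mag at 1012 and Mal at 937 CPM, but Prx, Ncmap, Drp2 and Pmp2 at 0 UMIs and Pmp22 at 150 CPM. Mag in the other adult MSC-like nuclei was 225 CPM, so this member stood higher in the 6 nuclei. Of the 7 tested genes of the oligodendrocyte list, 4 fell in aged MSC-like sums (Mobp, Mog, Enpp6 and Cldn11) and 0 rose, where 6.53% of all genes fell. Mog had 19, 0 and 0 UMIs and Mobp 54, 0 and 0, and the 6 nuclei held all 19 UMIs of Mog and 43 of those of Mobp. Without them Cldn11 was not called (adjusted p = 0.237), and Mog, Mobp and Enpp6 were too low to be tested. The summed level of the 8 genes of the list was 373, 313 and 360 CPM. Most of this sum was Aspa, at 285, 300 and 358 CPM, which stood higher in NMSC-like nuclei (990, 606 and 741 CPM). With the 6 nuclei left out, Mbp (−0.44), Pmp22 (−0.77), Mal (−0.68) and Pmp2 (0.83) were all still called.

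Other genes of the myelin sheath moved in both directions. Of 44 further myelin genes, 43 were in the files and tested in MSC-like sums, and 6 rose, 4 fell and 33 were not called. Over all genes tested in these sums 10.5% were called, 4.02% higher and 6.53% lower in aged libraries. The median log2 difference of the list was 0.02 beside 0.00 over all genes. Of 6 further genes of compact myelin, 3 fell and 0 rose. Cmtm5, a tetraspan protein gene of myelinating glia, fell with −0.62 ± 0.19 (adjusted p = 0.0154).

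Of 9 tested genes of non-compact myelin, nodes and paranodes, 3 rose and 1 fell. Gldn, which encodes gliomedin of the nodes of Ranvier, was at 376, 685 and 636 CPM (0.70 ± 0.14, adjusted p = 1.96e-05), and Cadm4, an adhesion molecule toward the axon, at 230, 409 and 391 (0.69 ± 0.15, adjusted p = 0.000207). Pals2, a scaffold gene, rose with 0.58 ± 0.16, and Cnp, which encodes a phosphodiesterase of non-compact myelin, fell with −0.44 ± 0.15. Of 6 genes of the outer membrane and its receptors, Sgcd, a sarcoglycan gene, rose with 0.41 ± 0.12 and 0 fell. Of 6 transcription factor genes, 2 rose, Egr2 (71.1, 159 and 91.2 CPM, 0.78 ± 0.20), the factor that drives myelin genes, and Pou3f1, which was named after its values were seen (0.59, adjusted p = 0.0495). For Egr2, aged replicate 2 was nearer to the adult library than to aged replicate 1. Without the 6 adult nuclei that carried oligodendrocyte genes Pou3f1 was not called (adjusted p = 0.0629). No gene was called among 4 lipid enzymes, 5 receptors of myelination signals and 7 genes of inherited demyelinating neuropathy.

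Of 8 genes tied to repair or immature Schwann cells, 6 were tested in MSC-like sums, and 3 rose, where 4.02% of all genes rose. Gap43, a growth-associated gene named after its values were seen, was at −0.66 and not called (adjusted p = 0.0539), but it was called as lower (−0.69, adjusted p = 0.0438) without the 6 adult nuclei that carried oligodendrocyte genes. The 3 that rose were Shh, a secreted signal at 2.28, 69.1 and 54.5 CPM (4.65 ± 0.47), Runx2 (1.42 ± 0.29) and Jun (1.25 ± 0.27), both transcription factors. Gdnf had 0 UMIs in the adult library and Olig1 had 0 in both aged libraries, and neither was tested. The summed level of the list was 182, 326 and 335 CPM.

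In NMSC-like sums the members that passed the threshold were higher in the aged libraries. Prx and Pmp22 rose, so that 2 of 8 members were called beside 7.5% of the 12509 genes tested (3.56% higher in aged), and 8.84% of those with at least the UMIs of the lowest member. Prx was at 42.5, 129 and 170 CPM (1.62 ± 0.29, 3.08-fold, adjusted p = 1.53e-06), and Pmp22 at 197, 453 and 350 (0.87 ± 0.22, 1.82-fold, adjusted p = 0.00179). Both aged libraries were above the adult one for the 2 genes. Against free RNA, adult Prx was 0.611 times and aged Prx 1.15 and 2.22 times, and Pmp22 was 0.391, 0.791 and 0.692 times, below free RNA in every library. At most 20.4%, 15.2% and 10.6% of NMSC-like UMIs were free RNA. Pmp22 had 1.91, 5.21 and 6.53 times the UMIs expected from that share, and Prx 2.99, 7.57 and 21.0 times. Among nuclei with more than 2000 genes the Pmp22 difference was 0.32 and was not called, and DESeq2 called only Prx of the members. With nuclei assigned by markers, Prx was at 2.13 and was not called (adjusted p = 0.181).

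The remaining 6 members had positive log2 differences in NMSC-like sums that were not called. Mbp was at 589, 742 and 789 CPM (0.21 ± 0.19), Mal at 98.0, 149 and 149 (0.44 ± 0.25) and Mag at 19.5, 46.4 and 19.4 (0.69 ± 0.40). Ncmap was at 14.4, 34.1 and 34.6 CPM (1.08 ± 0.43), Drp2 at 22.3, 39.5 and 53.9 (0.85 ± 0.38) and Pmp2 at 3.60, 12.3 and 26.3 (2.11 ± 0.73, adjusted p = 0.0524), the last on 5, 18 and 19 UMIs. For all but Mag the adult value was below both aged ones.

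MSC markers moved with the members in NMSC-like nuclei. Of the 7 MSC markers, 3 rose (Gldn by 4.50, Pllp by 2.29 and Cldn19 by 2.13 on the log2 scale) and 0 fell, and their summed level was 921, 1124 and 1002 CPM. UMIs of at least 2 of 6 of these markers were held by 9 adult nuclei (1.86%), 43 of aged replicate 1 (15.0%) and 20 of aged replicate 2 (13.1%). Nuclei were not thinned for these shares, and the median NMSC-like nucleus held 2557, 4036 and 3938 UMIs. The nuclei with at least 2 of the markers held a median of 3048, 6152 and 5141 UMIs. The part of depth in the shares was not tested. Without these nuclei Prx (1.29) and Pmp22 (0.70) were still called, Mbp was 0.02, and Prx stood at 30.2, 78.3 and 88.2 CPM. The part of MSC RNA in what remained was not tested. Of the repair list, 6 were tested here, and 4 rose (Jun, Ngfr, Gdnf and Runx2), where 3.56% of all genes rose.

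In SGC-like sums 1 of 8 members, Mal, was called, beside 17.2% of the 15583 genes tested (9.05% higher in aged). Mal was at 46.4, 84.4 and 68.8 CPM (0.54 ± 0.18, 1.46-fold, adjusted p = 0.0227), which was 0.556, 0.850 and 1.08 times free RNA. The median SGC-like nucleus held 3126.5, 7240 and 7925.5 UMIs, and among nuclei with more than 2000 genes the difference was 0.28 and was not called. DESeq2 called 0 members. Mbp was at 309, 310 and 327 CPM in SGC-like nuclei (−0.15 ± 0.15), and Prx at 20.8, 26.1 and 20.4 (−0.01 ± 0.23), with the adult Prx value between the aged ones.

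In neuron-like sums 0 of 8 members were called by edgeR, beside 7.96% of the 21451 genes tested, 3 had an unadjusted p under 0.05, and DESeq2 called 0. Mbp (93.6, 79.2 and 63.4 CPM, −0.50 ± 0.24), Prx (14.9, 14.0 and 7.95, −0.55 ± 0.25) and Pmp2 (−1.11 ± 0.50) were these 3, each with the adult library above both aged ones. In free RNA 0 of 8 members were called by edgeR, beside 17.3% of the 19189 genes tested, 1 had an unadjusted p under 0.05, and DESeq2 called 0. That gene was Prx (69.6, 112 and 76.5 CPM, 0.50 ± 0.20, adjusted p = 0.115). Free RNA held Mbp at 414, 447 and 307 CPM, Pmp22 at 505, 573 and 506, and Mal at 83.4, 99.3 and 63.6, so the adult library lay between the aged ones for Mbp and Mal. Fewer cells that shed a transcript and less RNA in each of them cannot be told apart in these sums.

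Whether the age difference of a gene itself differed between classes was tested with an interaction of class and age, with the library as a block. Against NMSC-like sums, 4 of 8 members had a more negative age difference in MSC-like sums, beside 2.9% of the 13277 genes tested (1.69% more negative). The difference of the log2 differences was −1.62 ± 0.23 for Prx (adjusted p = 1.15e-08), −1.61 ± 0.16 for Pmp22 (1.35e-16), −1.12 ± 0.22 for Mal (0.000131) and −0.66 ± 0.15 for Mbp (0.00192). Pmp22 fell in MSC-like and rose in NMSC-like sums, whereas Prx rose in NMSC-like sums and was not called in MSC-like sums. Without the nuclei that held other cells' markers, Mbp lost the call (−0.47, adjusted p = 0.134) and the other 3 kept it, and DESeq2 called Pmp22 and Prx. Against SGC-like sums, Mal (−1.21 ± 0.19, adjusted p = 7.31e-08) and Pmp22 (−0.97 ± 0.16, 5.64e-07) were called, 2 of 8 members beside 9.7% of the 14819 genes tested (6.36% more negative), and DESeq2 called 0. All these comparisons share the 3 libraries.

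Some genes other than the members followed them across classes. Over 24 sums, those of 8 classes in 3 libraries, the log2(CPM + 1) of 8197 genes was correlated with that of the summed members, as a description. The highest Pearson r were those of Secisbp2l (0.97), a selenocysteine insertion gene, Cldn19 (0.97), a claudin gene of Schwann cells, Gjb1 (0.96), a connexin gene whose loss causes neuropathy, and Ddn (0.96). Fa2h (0.95), which hydroxylates myelin lipid fatty acids, Gm16168 (0.94), G630064G18Rik (0.93), Sema4c (0.93) and Rhot1 (0.93) followed. Cldn19 and Fa2h were among the markers used to name the MSC-like cluster, and sums of a library share its depth and free RNA. Cldn19, Gjb1 and Fa2h were also among the further myelin genes listed beforehand. Among the members, r with the summed other 7 was highest for Prx (0.97) and lowest for Mal (0.79), which had its second-highest level in endothelial-like nuclei.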

How the data were processed

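Nuclear RNA of L3-L5 DRG was captured with PIP-seq, which tags each captured transcript with a UMI. The authors deposited unfiltered tables of UMI counts for every barcode, made by aligning and counting reads in Pipseeker. The submitters' processing notes name the build mm10, and strand and intron use in counting are not given in the sources used here. Positions are those of GENCODE M21 on GRCm38, in which 32149 of the 32227 gene identifiers (99.8%) were found, and promoters those of RefSeq.

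A nucleus needed more than 1000 genes, as in the study's methods. Seurat 5.3.0 (R 4.3.3) was used to normalize nuclei (SCTransform), to integrate the ages (RPCA, 30 principal components) and to cluster (resolution 0.8), without the members and the further myelin genes. A cluster was named from at least 3 markers and from a score at least 1.5 times the next. Each marker needed a log2 level over 1 above the median of the other clusters and UMIs in at least 10% of the cluster's nuclei. These names were rebuilt here and can differ from those of the study. No doublet caller was run. Clusters with markers of several lineages (518 adult nuclei, and 361 and 159 aged ones) and unnamed clusters (539, 234 and 123) were left out, which does not show that doublets were removed.

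UMI counts were summed per class and library and tested in edgeR 4.0.16 by quasi-likelihood (TMM factors, the default filter filterByExpr, a prior count of 0.125 and 1 residual degree of freedom) over all genes passing the filter, with Benjamini-Hochberg adjustment and a threshold of 0.05. In edgeR the spread of each gene is drawn toward that shared by all genes. SE is the absolute log2 difference divided by the square root of the test statistic F. In MSC-like and NMSC-like sums the members' p-values lie close to normal tails of the log2 difference over its SE. SE and p-values thus rest mostly on the shared spread, and how far a gene's own aged libraries differ counts little. All 8 members passed the filter in each comparison of the fit reported, but not under every alternative. After thinning, 5 were tested in SGC-like sums and 6 in neuron-like sums. The study's Wilcoxon test on nuclei was not used. Alternatives were DESeq2 1.42.0, other scalings and filters, other gates and clusterings (scanpy 1.11.5), thinning, free RNA subtraction and leaving out an aged library. The steps were tested on simulated data with the same spread set for all genes. Of changes of 1 on the log2 scale, 44%, 51%, 29% and 59% were called in MSC-like, NMSC-like, SGC-like and neuron-like sums. For changes of 2 the shares were 93%, 97%, 100% and 99%. A gene that was not called can thus still differ between ages. All 8 members are described. Of the further myelin genes, the 8 with the smallest adjusted p in MSC-like sums are named. Of all genes but the members, the 10 of at least 100 MSC-like UMIs most correlated with the members are named. Some genes that fall under these rules are not reported here. The members, lists and tests were chosen with earlier results of these data known.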

Additional observations from a re-analysis of the deposited data

Results flagged for a closer look

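The age difference of 4 members differed between MSC-like and NMSC-like sums by the interaction test of edgeR, over 3 libraries. The difference of the log2 differences was −0.66 for Mbp, −1.61 for Pmp22, −1.62 for Prx and −1.12 for Mal, each more negative in MSC-like sums. Between MSC-like and SGC-like sums the same test called Pmp22 (−0.97) and Mal (−1.21). The adult side of each difference is 1 library.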

How the results depend on the processing

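In MSC-like sums Pmp22 (log2 differences from −0.98 to −0.55) and Mal (−0.91 to −0.50) were called under every alternative with a test. Leaving out an aged library removes the last residual degree of freedom and gives values with no test, −0.47 to −0.42 for Mbp, −0.81 to −0.69 for Pmp22 and −0.72 to −0.64 for Mal. Mbp was not called by DESeq2 (−0.45), above 2000 genes (−0.30) or when nuclei were assigned by markers (−0.33), and Pmp2 was not called by DESeq2, after thinning, above 2000 genes (0.21) or after free RNA subtraction. Subtracting free RNA turned the uncalled differences of Mag (−0.11), Ncmap (−0.025) and Drp2 (−0.22), and gave −0.24 for Prx (adjusted p = 0.0961). Drp2 ranged from −0.058 to 0.10 with an aged library left out, and was also negative in scanpy clusters (−0.068) and without nuclei holding other cells' markers (−0.0057). Prx, at 0 in the fit reported, was 0.00348 with RLE scaling, 0.11 with UMI totals only, 0.00364 with DESeq2, 0.00516 with no filter, −0.014 to 0.023 with an aged library left out, 0.13 above 2000 genes, 0.11 above 500 genes and 0.13 above 1000 genes with nuclei assigned by markers, and −0.058 in scanpy clusters and −0.023 without nuclei holding other cells' markers. Ncmap was called above 2000 genes (0.73), and Prx in NMSC-like sums was not called with nuclei assigned by markers (2.13). The cause of these moves was not tested.

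Counts of members called, of those tested, moved as follows, with all genes called and tested in brackets. DESeq2 called 2 of 8 in MSC-like sums (172 of 12942) and 1 of 8 in NMSC-like sums (196 of 12509). In SGC-like sums it called 0 of 8 (618 of 15583). Its interactions gave 2 of 8 with NMSC-like sums (28 of 13277) and 0 of 8 with SGC-like sums (33 of 14819). Above 2000 genes the counts were 1 of 8 in NMSC-like sums (511 of 9707) and 0 of 7 in SGC-like sums (202 of 15225). Free RNA subtraction gave 5 of 8 in NMSC-like sums (1367 of 11461) and 0 of 7 in SGC-like sums (433 of 14773). It gave 1 of 7 in neuron-like sums (Prx, 771 of 20939) and 0 of 8 in the interaction with SGC-like sums (62 of 14220). SGC-like sums had 0 of 8 with no filter (0 of 25893) and 2 of 8 in scanpy clusters (2609 of 16310). Assigned by markers, they had 0 of 6 above 1000 genes (343 of 14003) and 0 of 7 above 500 genes (363 of 14355). Neuron-like sums had 1 of 8 (Prx, −0.78) without nuclei holding other cells' markers (1702 of 21249). Free RNA had 1 of 8 with no filter (Prx, 0.53), beside 4929 of 27840 genes. In barcodes of 1 to 9 UMIs it had 1 of 8 (Ncmap, 0.80), beside 1032 of 13033 genes.

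Of all genes, edgeR called 1365, 938, 2680 and 1708 in MSC-like, NMSC-like, SGC-like and neuron-like sums and 3326 in free RNA, and DESeq2 172, 196, 618, 477 and 945. Thinning gave 474, 357, 507 and 286 in the 4 classes, and over 2000 genes 626, 511 and 202 in the first 3. Assignment by markers gave 436, 343 and 1088 in NMSC-like, SGC-like and neuron-like sums and, above 500 genes, 363 in SGC-like sums. Free RNA subtraction gave 433 and 771 in SGC-like and neuron-like sums, no filter 0 in SGC-like sums (3475 at an unadjusted p under 0.05), and barcodes of 1 to 9 UMIs 1032 in free RNA. The scaling by UMI totals, the removal of nuclei with other cells' markers and the free RNA subtraction in the interactions were chosen after seeing the data. No paired analysis was possible because the ages share only replicate number 1. With 1 adult library, age and library cannot be told apart, and members with few UMIs, such as Pmp2, are limited by counting.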

Other observations

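Clusters left out of the classes also held the members. In the clusters with markers of several lineages, Mbp stood at 761, 1192 and 1448 CPM (adult, then the aged replicates), Prx at 113, 303 and 336, and Pmp2 at 13.8, 46.2 and 46.3. In unnamed clusters Mbp was at 35.4, 39.1 and 22.1 CPM.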
